A study of Homo sapiens with 6 samples.

Results

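Open chromatin far from any gene start was examined in HLF, a cell line established from a human liver cancer. The consensus peak sets of the vehicle and the drug group were merged wherever they overlapped by at least 1 bp, and a merged region was kept when its centre lay outside every protein-coding and long noncoding RNA (lncRNA) gene body and more than 100 kb from every transcription start site of such genes. This left 3411 far intergenic regions among 96271 merged regions, or 3.54%. The cells were treated with DMSO, the vehicle, or with 5 μM SNDX-5613 (revumenib), a small molecule that blocks the binding of menin to the histone methyltransferase MLL1, with 3 libraries per group. The labels state 24 h of treatment for both groups. The study's text describes a longer treatment for ATAC-seq, so the true duration is uncertain. Accessibility was measured by ATAC-seq, in which Tn5 transposase inserts adapters into DNA left free by nucleosomes, and stretches rich in such insertions are called as peaks. The study's methods describe a replicate as a dish of cells divided between treatment and control, but they do not say that libraries with the same number came from the same dish. The libraries were therefore compared as groups of 3, and values paired by number are given where they change a count.

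Intergenic sequence far from genes lies largely in gene deserts, which tend to be poor in G and C bases. Some deserts hold enhancers, stretches of DNA that bind transcription factors and act on a gene over a long distance through looping of the chromatin, and many flank developmental regulators such as SOX9. CTCF, an architectural protein that stops loop extrusion by cohesin, also binds many sites between genes. Menin and MLL1 act mainly at promoters, where MLL1 methylates lysine 4 of histone H3.

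The presence of a peak and its rank within each library's list were compared. A region was present in a library when at least 1 of that library's peaks overlapped it, and its rank was the percentile of its −log10 p among all regions of that list, from 0 for the weakest to 100 for the strongest. SNDX-5613 replicate 3 stood apart in depth. Its list held 40568 regions against 88026 to 113675 in the other 5 libraries, and its genome-wide background pileup, a relative measure of depth solved from the peak values, was 0.211 against 0.997 to 1.51. A region short of the threshold in that library was therefore not detectable at its depth rather than shown to be closed, and results that rest on it are given with and without it. Of 10 hepatocyte marker genes, 1 carried a peak at its promoter in every library and 6 had none in any, ALB and HNF4A among them, whereas 6 of 6 mesenchymal and 4 of 5 epithelial markers had one in all 6.

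The sequences of the regions that the results turn on are given first, each as the strongest summit and 100 bases on either side, on the plus strand of hg38, with matches to the searched motifs in capitals. The first 3 had the highest values of the lowest rank over the 6 libraries, and their summits were rich in G and C, at 57.7% to 69.7%. The next 3 had a peak in every library of 1 group and in none of the other, and the last 3 had wide gaps in rank between the groups. The number after a name is its place in that order. The capitals mark an ETS match in the first, a TEAD match in the fourth, 3 AP-1 matches and an NF-Y match in the fifth, 2 SP matches in the seventh and 2 CTCF matches in the eighth, while the other 4 held none of the 10 motifs searched.
Strongest in all 6 1 (chr20:29080068-29080268): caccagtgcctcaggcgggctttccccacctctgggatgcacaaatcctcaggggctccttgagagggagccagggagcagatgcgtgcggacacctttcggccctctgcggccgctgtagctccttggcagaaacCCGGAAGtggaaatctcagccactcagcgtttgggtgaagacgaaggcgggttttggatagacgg
Strongest in all 6 2 (chr20:29445576-29445776): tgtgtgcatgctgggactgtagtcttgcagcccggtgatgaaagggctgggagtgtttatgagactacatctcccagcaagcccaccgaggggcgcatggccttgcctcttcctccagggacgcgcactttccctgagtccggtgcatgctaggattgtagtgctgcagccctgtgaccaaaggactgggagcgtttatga
Strongest in all 6 3 (chr22:10741965-10742165): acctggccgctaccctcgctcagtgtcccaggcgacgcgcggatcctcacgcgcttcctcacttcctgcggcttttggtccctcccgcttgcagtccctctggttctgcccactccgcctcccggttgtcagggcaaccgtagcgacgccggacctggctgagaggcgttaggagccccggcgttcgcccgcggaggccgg
SNDX-5613 only 1 (chr7:70925473-70925673): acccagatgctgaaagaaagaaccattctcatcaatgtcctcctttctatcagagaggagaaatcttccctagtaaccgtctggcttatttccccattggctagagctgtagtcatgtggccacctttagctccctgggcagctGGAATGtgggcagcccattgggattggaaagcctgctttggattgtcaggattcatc
DMSO only 1 (chr1:191641519-191641719): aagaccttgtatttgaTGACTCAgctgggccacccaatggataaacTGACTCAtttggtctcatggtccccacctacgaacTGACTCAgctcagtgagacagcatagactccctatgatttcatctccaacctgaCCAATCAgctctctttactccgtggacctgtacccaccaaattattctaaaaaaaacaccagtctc
DMSO only 2 (chr22:12631054-12631254): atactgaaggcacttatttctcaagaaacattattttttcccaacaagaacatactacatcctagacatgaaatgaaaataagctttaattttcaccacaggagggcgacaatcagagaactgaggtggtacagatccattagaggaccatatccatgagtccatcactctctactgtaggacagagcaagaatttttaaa
Higher in SNDX-5613 1 (chr5:3324516-3324716): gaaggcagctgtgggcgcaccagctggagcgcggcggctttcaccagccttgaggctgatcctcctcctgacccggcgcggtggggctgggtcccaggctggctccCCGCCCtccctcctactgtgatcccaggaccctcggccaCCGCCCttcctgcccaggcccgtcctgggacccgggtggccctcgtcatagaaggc
Higher in SNDX-5613 2 (chr14:106618490-106618690): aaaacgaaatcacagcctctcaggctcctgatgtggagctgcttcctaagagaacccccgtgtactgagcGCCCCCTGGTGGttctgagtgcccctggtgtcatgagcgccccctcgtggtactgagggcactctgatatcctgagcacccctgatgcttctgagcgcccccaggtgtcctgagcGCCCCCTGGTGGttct
Lower in SNDX-5613 2 (chr4:29717591-29717791): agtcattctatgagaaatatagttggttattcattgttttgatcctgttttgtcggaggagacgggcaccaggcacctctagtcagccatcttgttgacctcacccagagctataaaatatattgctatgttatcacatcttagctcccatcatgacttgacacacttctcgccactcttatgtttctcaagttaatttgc

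The far intergenic regions were thinly spread. The sequence that meets the rule covered 384 Mb, or 13.1% of the assembled genome, and held 8.88 regions per Mb, against 30.4 per Mb in intergenic sequence nearer to genes and 32.8 per Mb over the whole genome. Density was lower at each step away from genes, with 12.2 regions per Mb at 100 to 200 kb, 8.40 at 200 to 500 kb, 4.57 at 500 to 1000 kb and 0.645 beyond 1000 kb. The median region lay 170 kb from the nearest gene start, with quartiles at 127 and 263 kb, and the farthest lay 2131 kb away. At the edge of the rule, 34 members lay less than 1 kb past the limit, of which 5.88% had a peak in all 6 libraries, and 39 other intergenic regions lay less than 1 kb short of it, of which 30.8% did. The regions had a median width of 383 bp, from 109 to 2196 bp. Although sparse, they were not isolated, since 45.8% had another region within 10 kb, against 67.7% of the 24534 nearer intergenic regions. The class depends on the annotation: 109 members lay inside a gene of another GENCODE type, such as a pseudogene, and 523, or 15.3%, lay inside a RefSeq gene.

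The open sites were richer in G and C than the sequence around them. The median GC content within 100 bp of the summit was 47.8% in far intergenic regions, 51.2% in nearer intergenic regions, and over the 20 kb around the summit it was 37.2% and 44.5%. Far intergenic sequence as a whole had 37.5% GC. Repeated sequence was more frequent. Copies of the 31 bases at the summit were counted on the chromosomes used here, and other contigs were not searched. A single copy was found for 88.5% of far intergenic regions, against 94.1% of nearer intergenic regions, and 4.90% against 1.94% had 10 or more copies. The CENP-B box, the sequence bound by the centromere protein CENP-B in alpha satellite DNA, occurred in 27 far intergenic regions, against 3 nearer intergenic regions. Of these 27, 18 were in both consensus sets, 9 were in the SNDX-5613 set only and 0 were in the DMSO set only, and 2 had a peak in all 6 libraries.

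The motif content of the far intergenic regions resembled that of other distal sites more than that of promoters. Motifs were searched on both strands within 100 bp of the strongest summit. The letters were TGANTCA for AP-1 (the FOS and JUN factors), CATTCC for TEAD (the DNA-binding partners of YAP), TTGCNNAA for CEBP, TGTGGTT for RUNX, TGTTTAC for FOX, CCGGAAG for ETS and GGGCGG for SP. NF-Y was searched as CCAATCA or CCAATGA, the GATA family as AGATAA, and CTCF by a named consensus. None of these patterns contains another, although matches may overlap in a sequence. AP-1 was the most frequent, in 20.2% of far intergenic regions, 20.9% of nearer intergenic regions and 19.5% of all merged regions. TEAD followed at 17.4%, against 17.1% and 15.96%. GATA was found in 9.44% against 7.38% of nearer intergenic regions and 6.72% of all regions, and FOX in 4.02% against 2.70% and 2.68%. CEBP was found in 8.62% of the far intergenic regions and 7.46% of all, RUNX in 5.45% and 4.40%, and NF-Y in 6.71% and 7.20%. CTCF was found in 5.36%, below the 7.62% of nearer intergenic regions and the 5.97% of all. The promoter motifs were rarer, with SP in 7.71% and ETS in 1.99%, against 48.5% and 10.1% of promoter regions. A match is a run of letters and was not tested for binding.

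**Figure D1:**
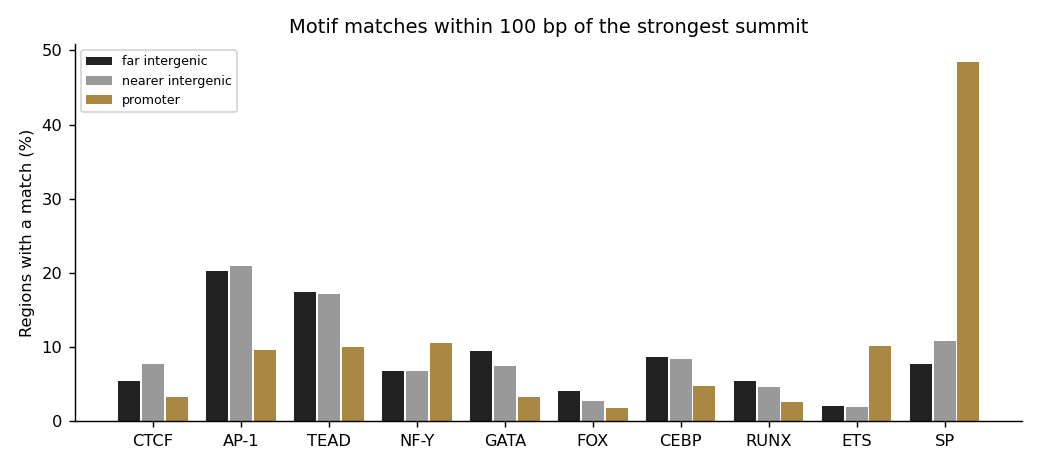
Share of regions, in percent, with a match to each of 10 motifs within 100 bp of the strongest summit. Bars give far intergenic regions, nearer intergenic regions and promoter regions. AP-1 and TEAD lead in both intergenic classes, at 20.2% and 17.4% of far intergenic regions, whereas SP leads at promoters with 48.5%.

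Far intergenic regions were called less often than nearer intergenic ones in each of the 6 libraries, and the gap was wider in each SNDX-5613 library than in any DMSO library. With DMSO, 67.9%, 84.6% and 74.4% of the 3411 regions had a peak in replicates 1 to 3. With SNDX-5613 the shares were 75.9%, 69.7% and 22.9%. The last value belongs to the shallow library, and the groups overlapped, at 75.6% ± 8.44 (SD, n = 3) for DMSO and 56.2% ± 29.0 (SD, n = 3) for SNDX-5613, a difference of −19.4 percentage points (exact two-sided permutation test, p = 0.5). Without SNDX-5613 replicate 3 the difference was −2.80 points (p = 0.9, exact permutation test). Set against the nearer intergenic regions of the same library, which share its depth, the groups did not overlap. The share of far minus nearer intergenic regions with a peak was −5.57, −1.09 and −2.70 points with DMSO and −9.60, −9.90 and −8.02 points with SNDX-5613. The difference between groups was −6.05 points, and the exact two-sided permutation test gave p = 0.1, the smallest value that 3 against 3 libraries allow. The contrast was chosen after the values were seen. It was −6.63 points without SNDX-5613 replicate 3, but 0.618 points, with overlapping groups, when every list was reduced to its top 40568 regions. Over sites merged from the 6 peak lists it was −4.72 points (exact permutation test, p = 0.2). The regions come from consensus sets of these libraries, and a larger share of far than nearer ones entered through the DMSO set alone. The contrast is thus not independent of how the regions were chosen.

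**Figure D2:**
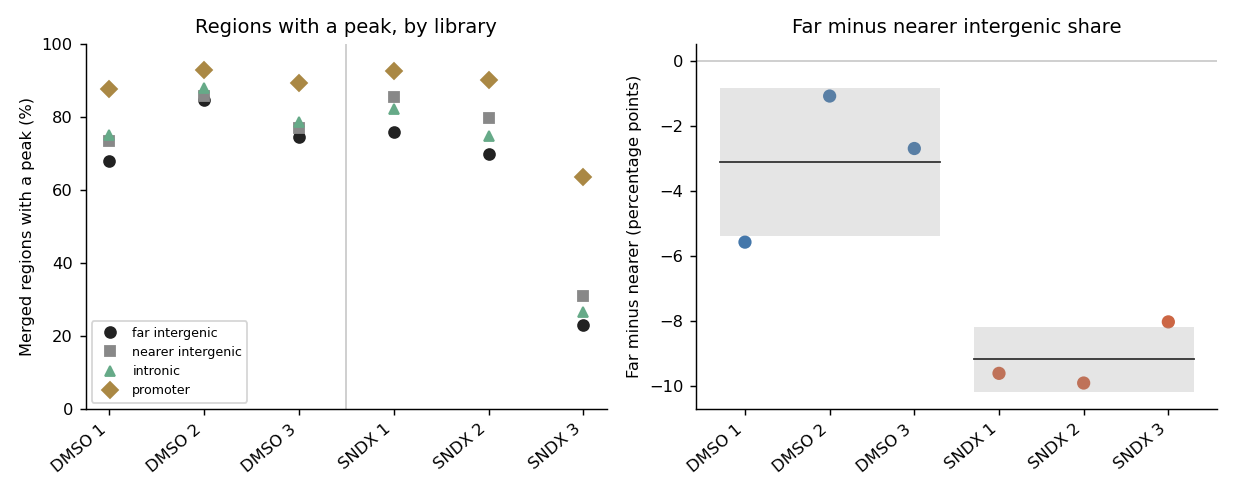
Left, percent of merged regions of 4 classes with a peak in each of the 6 libraries (DMSO 1 to 3 and SNDX-5613 1 to 3). Right, percent of far minus percent of nearer intergenic regions with a peak in each library, with the group mean as a line and 1 SD as a shaded band (n = 3). The 3 SNDX-5613 libraries lie between −9.90 and −8.02 points, below the 3 DMSO libraries.

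The gap moved with the base composition around the regions. Of the far intergenic regions 74.1% lay in 20 kb windows with under 40% GC, against 20.5% of nearer intergenic regions. Among regions in such AT-rich surroundings, the far minus nearer share was −2.64, 0.168 and 1.02 points with DMSO and −7.31, −5.97 and −3.09 points with SNDX-5613. Where the 20 kb held 40% GC or more it was −8.35, −6.94 and −9.36 points with DMSO and 0.812, 2.04 and −3.70 points with SNDX-5613, so that the order of the groups was turned (difference 7.93 points, exact permutation test, p = 0.1). Within the far intergenic class itself, the share present in AT-rich windows minus the share present in the other windows was 3.00, 8.21 and 8.47 points with DMSO and −16.3, −19.2 and −8.30 points with SNDX-5613, a difference of −21.2 points (exact permutation test, p = 0.1). Nearer intergenic regions differed in the same direction, by −8.27 points (exact permutation test, p = 0.1). Over the top 40568 regions of any kind, the median GC content within 100 bp of the summit was 56.2% in each DMSO library and 56.7%, 56.7% and 57.2% in the SNDX-5613 libraries, a difference of 0.663 points (exact permutation test, p = 0.1). Over the 20 kb around those summits the groups overlapped, at 44.80%, 44.78% and 44.75% against 44.96%, 44.93% and 44.75% (exact permutation test, p = 0.4). Among the far intergenic regions of these lists, the median within 100 bp differed by −0.249 points with overlapping groups (exact permutation test, p = 0.6), and the 20 kb median by 0.754 points without overlap (exact permutation test, p = 0.1). Whether this reflects the treatment or the preparation of the libraries was not tested.

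The consensus sets were divided in the same direction. They come from the same libraries and define the regions counted, so they are not a second measurement. Of the 3411 regions, 2234 (65.5%) were in both sets, 718 (21.0%, 95% Wilson interval 19.7 to 22.4) in the DMSO set only and 459 (13.5%, 12.4 to 14.6) in the SNDX-5613 set only, where the intervals cover counting error only. Over all merged regions 10.6% were in the DMSO set only and 9.96% in the SNDX-5613 set only. Among nearer intergenic regions the shares were 9.91% and 12.8%, with the larger share in the SNDX-5613 set. An excess of DMSO-only regions was not particular to sites far from genes, since intronic regions had 13.5% and 10.2% and exonic regions 11.5% and 9.98%. Nearer intergenic regions in 20 kb windows with under 40% GC had it as well, with 17.2% and 11.0%. Composition went along with it. Of the far intergenic regions in windows with under 35% GC, 36.2% were in the DMSO set only and 7.43% in the SNDX-5613 set only, whereas in windows of 45% GC or more the shares were 5.80% and 25.6%. All merged regions spanned a narrower range, from 32.5% to 7.37% for DMSO only and from 5.38% to 10.4% for SNDX-5613 only. At matched composition the far and nearer intergenic classes were closer in their DMSO-only shares, with 36.2% and 31.2% in the DMSO set only under 35% GC, 26.3% and 23.6% at 35 to 37%, 17.9% and 12.3% at 37 to 40%, 6.42% and 8.61% at 40 to 45% and 5.80% and 7.62% at 45% or more. Their SNDX-5613-only shares were farther apart at high GC than over all windows, with 7.43% and 6.37% under 35% GC, 8.70% and 9.82% at 35 to 37%, 14.5% and 12.2% at 37 to 40%, 20.6% and 13.6% at 40 to 45% and 25.6% and 13.1% at 45% or more.

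**Figure D3:**
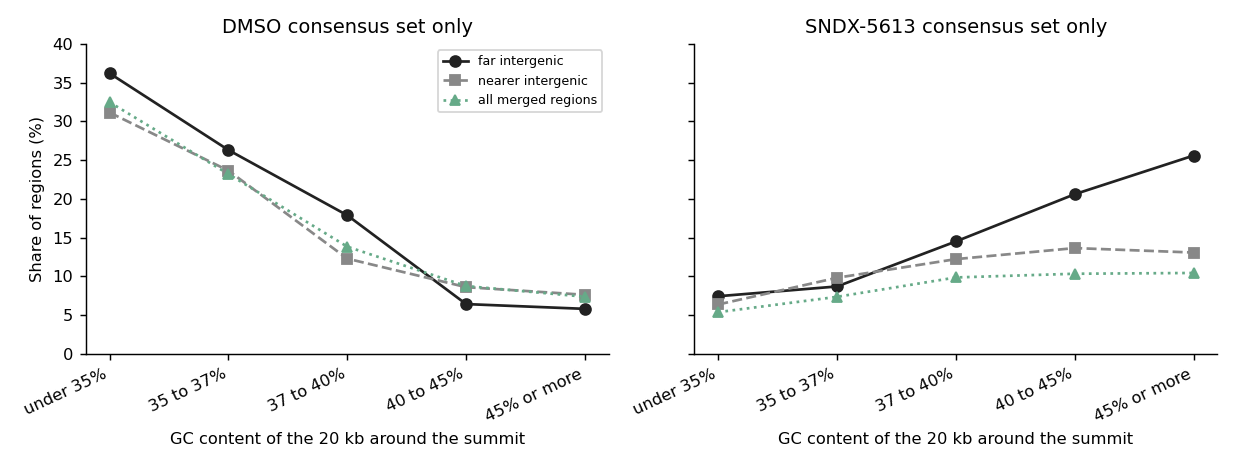
Share of regions, in percent, found in the DMSO consensus set only (left) or in the SNDX-5613 consensus set only (right), by the GC content of the 20 kb around the summit. Lines join far intergenic, nearer intergenic and all merged regions. From the lowest to the highest GC class, the DMSO-only share of far intergenic regions goes from 36.2% to 5.80% and the SNDX-5613-only share from 7.43% to 25.6%.

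Distance showed a weaker gradient. In windows with under 40% GC, 24.4% of the regions at 100 to 200 kb, 27.9% of those at 200 to 500 kb and 31.3% of the 179 beyond 500 kb were in the DMSO set only. In the other windows the shares were 6.27%, 6.90% and 0%, the last over 22 regions. This split did not separate distance from composition. Among far intergenic regions, the median distance was 212 kb under 35% GC, 196 kb at 35 to 37% and 164 kb at 37 to 40%. Regions with a summit sequence of a single copy gave 20.6% in the DMSO set only and 13.4% in the SNDX-5613 set only, close to the shares of the whole class. Chromosomes differed: the DMSO-only share was 34.3% of 484 regions on chromosome 4, 28.0% of 225 on chromosome 3 and 25.2% of 313 on chromosome 6, but 6.98% of 129 on chromosome X, where 21.7% were in the SNDX-5613 set only. Among the other merged regions of chromosomes 4, 3 and 6, the DMSO-only shares were 14.4%, 10.9% and 11.3%. Those of chromosome X had 8.93% in the DMSO set only and 10.4% in the SNDX-5613 set only. On chromosome 21 the DMSO-only share was 28.6% of 70 far intergenic regions and 17.9% of the other regions. Regions with a CTCF match were in the DMSO set only in 10.9% of cases and in the SNDX-5613 set only in 7.10%, both lower than in the class as a whole. AP-1 matches went with 16.1% and 11.0%, and NF-Y matches with 20.1% and 14.8%.

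Regions with a peak in all libraries of 1 group and none of the other were more frequent here than among all merged regions, in both directions, and the number specific to SNDX-5613 depended on the shallow library. Peaks called in every DMSO library and absent from every SNDX-5613 library were found at 149 far intergenic regions, or 4.37%, against 1.77% of all merged regions and 1.26% of nearer intergenic regions. The opposite was found at 21 regions, or 0.616%, against 0.212% of all and 0.330% of nearer intergenic regions. Because a site must pass the threshold of the shallow library to count as SNDX-5613-specific, the counts were repeated without SNDX-5613 replicate 3. There were then 154 DMSO-specific regions, 4.51% against 1.81% of all merged regions, and 143 SNDX-5613-specific regions, 4.19% against 2.27% of all. Of the 149 DMSO-specific regions, 142 lay in 20 kb windows with under 40% GC, with a median of 35.4%. Of the 143 SNDX-5613-specific regions, 68 did, with a median of 40.4%. The base content at the summit also differed, with medians of 46.8% and 55.2%. An SP match occurred in 3.36% of the 149 and 16.1% of the 143, a FOX match in 2.68% and 9.09% and a TEAD match in 12.8% and 18.2%, whereas a GATA match occurred in 13.4% and 4.20% and a CTCF match in 4.70% and 2.10%. AP-1, NF-Y, CEBP, RUNX and ETS matches differed by less than 2 percentage points. In the 21 regions specific to all 3 SNDX-5613 libraries, the shares were 19.05% for SP, 23.8% for TEAD, 9.52% for GATA and 4.76% for FOX. With only 21 regions, these shares rest on few matches and cannot be compared closely with those of larger sets. None of these motif shares was tested.

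The leading SNDX-5613-specific region, chr7:70925462-70925761, lay 139 kb from the start of AUTS2, a gene of brain development. It ranked at percentiles 63.7, 56.5 and 60.2 in the SNDX-5613 libraries, with pileups of 27, 25 and 9 fragments at the summit, and had no peak with DMSO. It carries the TEAD match shown above. Another, chr20:31094874-31095203, 163 kb from the defensin gene DEFB115, ranked at 37.9, 30.9 and 31.1. A further pair lay 112 kb from an lncRNA gene near MOCS1, an enzyme of molybdenum cofactor synthesis, and 113 kb from CAVIN4, a caveola protein of muscle. Their ranks in the shallow library were low, at 20.4 for both, and both were in both consensus sets although no DMSO library had a peak there.

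Taking the lowest percentile over the libraries with a peak, the leading DMSO-specific region reached 73.9 and the leading SNDX-5613-specific one 56.5. They led 149 and 21 regions, and the latter had to pass the threshold of the shallow library. With SNDX-5613 replicate 3 left out of the rule, the median of this value was 21.0 over 154 DMSO-specific regions. It was 21.2 over 143 SNDX-5613-specific regions. The first DMSO-specific region, chr1:191641382-191641877, lay 182 kb from LINC02770 and 517 kb from RGS18, a regulator of G protein signalling in blood cells. It ranked at 74.97, 83.4 and 73.9 in the DMSO libraries, with pileups of 38, 60 and 42, and no SNDX-5613 library had a peak there. Its sequence holds 3 AP-1 matches and an NF-Y match in the bases shown, and its 20 kb surroundings have 31.5% GC. The second, chr22:12631100-12631231, ranked at 69.3, 66.8 and 68.1, and its 31 summit bases occur 2 times on the chromosomes searched. The third lay 147 kb from CCSER2 on chromosome 10, at percentiles 69.2, 73.0 and 57.4. The fourth lay 1031 kb from PCDH9, a protocadherin of neural cell adhesion, at percentiles 68.4, 55.8 and 63.8. The fifth lay 202 kb from PLSCR5 on chromosome 3 at percentiles 62.3, 55.0 and 56.2, and its 31 summit bases have 37 copies.

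**Figure D4:**
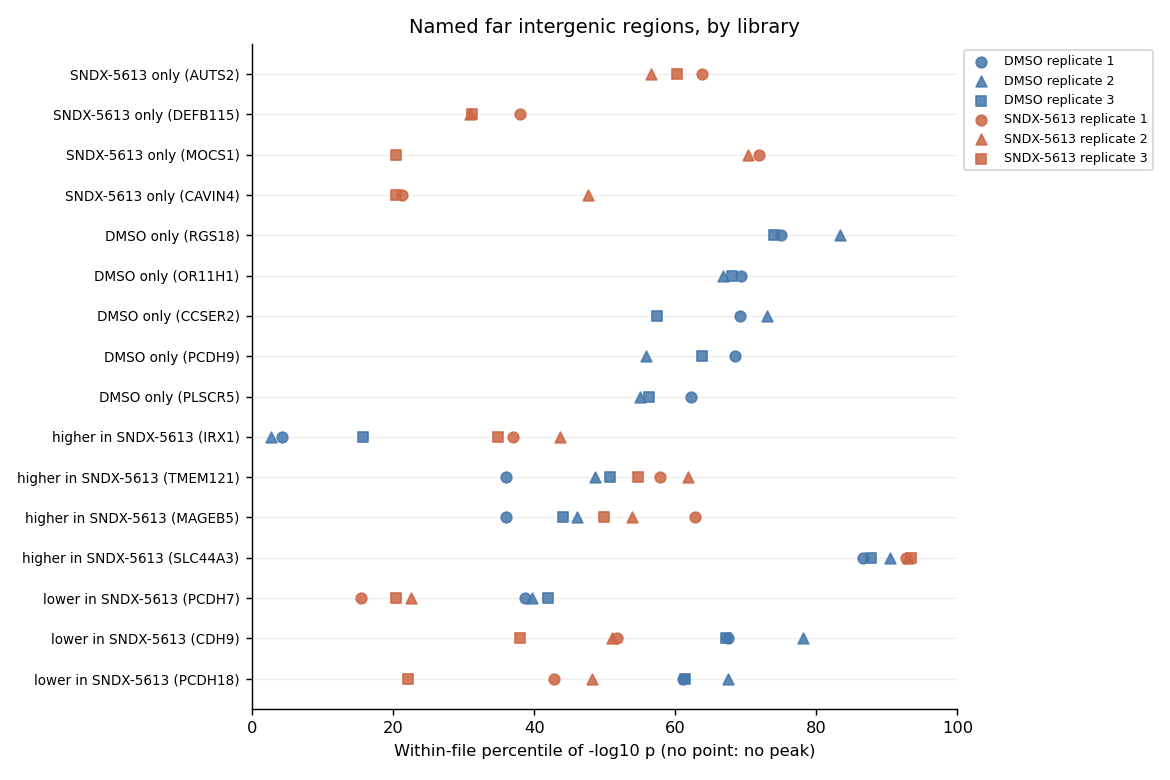
Percentile of −log10 p within each library's list for the named far intergenic regions, with the nearest protein-coding gene in parentheses. Blue symbols are DMSO and orange symbols SNDX-5613 libraries, the symbol shape gives the replicate, and a missing symbol means that no peak was called. The groups do not overlap at any of these regions, which were chosen for that.

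Ranks were compared at the 657 far intergenic regions, 19.3% of the class, that had a peak in all 6 libraries. Their median percentile was 63.0, 71.2 and 67.4 with DMSO and 70.5, 67.3 and 39.3 with SNDX-5613. The groups overlapped, and the difference of −8.14 percentile points rested on SNDX-5613 replicate 3 (exact permutation test, p = 0.6). The percentile is taken within each list, so a shorter list gives lower values at the same set of regions. Ranked instead among the 33213 merged regions present in all 6 libraries, the medians were 24.3, 23.2 and 24.3 with DMSO and 23.6, 22.7 and 28.7 with SNDX-5613. Far intergenic regions ranked below nearer intergenic ones in 6 of 6 libraries, with a difference of −8.78 ± 0.753 percentile points (SD, n = 6, exact two-sided sign-flip test, p = 0.03125, the smallest that 6 libraries allow). The size of this gap differed by −0.249 points between the groups, and they overlapped (exact permutation test, p = 0.8). Among the top 40568 regions of each library, 1.99%, 1.94% and 2.04% were far intergenic with DMSO and 1.95%, 2.03% and 2.64% with SNDX-5613 (exact permutation test, p = 0.6).

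At some of the 657 regions the percentiles of the groups did not overlap, and the direction depended on the scale. By percentile within each list, 75 regions lay lower in all SNDX-5613 libraries, 11.4% against 7.7% of all regions present in the 6 libraries, and 8 lay higher, 1.22% against 0.979%. When each SNDX-5613 library was compared with the DMSO library of the same number, 118 regions were lower in every pair, 17.96% against 18.9% of all, and 22 were higher, 3.35% against 2.41%. Paired in this way, the share that lay lower was thus near that of all regions. Ranked among the shared regions, 67 lay lower, 10.2% against 8.05%, and 74 higher, 11.3% against 8.53%. Without SNDX-5613 replicate 3, 1551 regions had a peak in the remaining 5 libraries. On the shared scale 308 of these, 19.9% against 14.4% of all, lay lower with SNDX-5613, and 248, 15.99% against 14.3%, lay higher. The share that lay higher was thus close to that of all regions, whereas the share that lay lower was larger, and among nearer intergenic regions it was 11.8%.

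Toward lower rank, the region 1003 kb from PCDH7, a protocadherin, ranked at 38.7, 39.6 and 42.0 with DMSO and 15.4, 22.6 and 20.4 with SNDX-5613, but on the shared scale SNDX-5613 replicate 3 was the highest of the 6, at 10.7. The region 695 kb from CDH9, a cadherin, ranked at 67.4, 78.2 and 67.2 against 51.7, 51.1 and 37.9. The region 108 kb from PCDH18 ranked at 61.1, 67.4 and 61.4 against 42.9, 48.2 and 22.1. On the shared scale the groups still did not overlap at the PCDH18 region, whereas they overlapped at the PCDH7 and CDH9 regions.

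Toward higher rank, the widest gap was at chr5:3324450-3325576, 128 kb from LINC02162 and 271 kb from IRX1, a homeobox transcription factor. It ranked at 4.27, 2.63 and 15.7 with DMSO and 37.04, 43.6 and 34.8 with SNDX-5613, with pileups of 6, 6 and 9 against 20, 26 and 8. Its summit sequence has 71.6% GC and 2 SP matches. A region on chromosome 14, 136 kb from LINC00221, carried 2 CTCF matches and ranked at 36.0, 48.6 and 50.7 against 57.9, 61.7 and 54.7. Its 31 summit bases have 5 copies on the chromosomes searched, and its centre lies in a RefSeq gene. A region on chromosome X, 438 kb from MAGEB5, ranked at 36.0, 46.1 and 43.99 against 62.8, 53.8 and 49.8. Its centre lies in a GENCODE gene of another type. The strongest of the 4 lay 106 kb from SLC44A3, a choline transporter-like gene, and ranked at 86.6, 90.4 and 87.7 against 92.7, 93.1 and 93.4. The centre of this region lies in a RefSeq gene and in a GENCODE gene of another type. All 4 also did not overlap between groups on the shared scale, where SNDX-5613 replicate 3 was the highest library at each. They were chosen for their gap in rank, so this is not a separate test.

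The strongest far intergenic regions ranked high in all 6 libraries. At 5 of the 6 regions, the 31 summit bases occurred a single time on the chromosomes searched. Other contigs were not searched, so this does not show that reads at these regions mapped to a single place. The highest minimum percentile belonged to chr20:29079806-29080730, 468 kb from the lncRNA gene FAM242B, with percentiles from 99.97 to 99.99. The next was chr20:29444878-29445888, 103 kb from FAM242B, with percentiles from 98.9 to 99.8. The third, chr22:10741231-10742451, ranged from 96.7 to 99.02, the fourth, on chromosome 20, from 92.7 to 98.3, and the fifth, on chromosome 22, from 91.8 to 97.7. The centre of the fourth lies in a RefSeq gene and in a GENCODE gene of another type. The sixth was chr5:70585925-70586325, 315 kb from SERF1A, with percentiles from 91.7 to 98.8 and a summit GC content of 77.1%. In 5 of these 6, SNDX-5613 replicate 3 had the lowest value. The 5 regions farthest from a gene start, at 1963 to 2131 kb, lay on chromosomes 17, 7 and 16, and 3 of them held a CENP-B box. The farthest, chr17:24823711-24824160, had peaks in 5 libraries at percentiles of 19.8 to 37.3, and its 31 summit bases have 359 copies. The other 4 were in the SNDX-5613 consensus set only, with peaks in 2 to 4 libraries.

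Far intergenic regions were spread unevenly over the stretches that meet the rule. Of 1581 such stretches, 854 held at least 1 region, and 81 stretches with 10 or more regions held 1267, or 37.1%, of all regions in 16.2% of the sequence. These 81 were picked by their count of regions, and no expected share was computed. The richest was chr4:178075823-179365304, between AGA and TENM3, a teneurin adhesion protein that guides axons. It held 61 regions, 47.3 per Mb, of which 36 were in both sets, 23 in the DMSO set only and 2 in the SNDX-5613 set only. Peaks were called at 37, 51 and 49 of the 61 with DMSO and at 29, 31 and 14 with SNDX-5613. The second, chr6:9324595-10304501, lies beside TFAP2A, a transcription factor of neural crest and epidermis, and held 37 regions. It had peaks at 22, 29 and 25 with DMSO and at 24, 26 and 9 with SNDX-5613, so that the deep libraries of both groups overlapped there. The third, chr4:34768767-35946033, between PCDH7 and ARAP2, held 32 regions, with peaks at 29, 31 and 31 against 24, 25 and 8. The fourth, chr3:161921909-162926395, between OTOL1, which encodes a protein of the inner ear, and SI, the intestinal sucrase-isomaltase, held 28 regions. Here 15 were in the DMSO set only and 1 in the SNDX-5613 set only, and peaks were called at 23, 27 and 26 with DMSO and at 11, 9 and 4 with SNDX-5613. The fifth, chr6:80567250-81434912, between BCKDHB, a subunit of the branched-chain ketoacid dehydrogenase, and TENT5A held 24 regions, with peaks at 20, 22 and 20 against 16, 16 and 5. The median 20 kb GC content of the regions in these 5 stretches was 34.7% to 37.1%, with the highest value in the TFAP2A stretch.

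**Figure D5:**
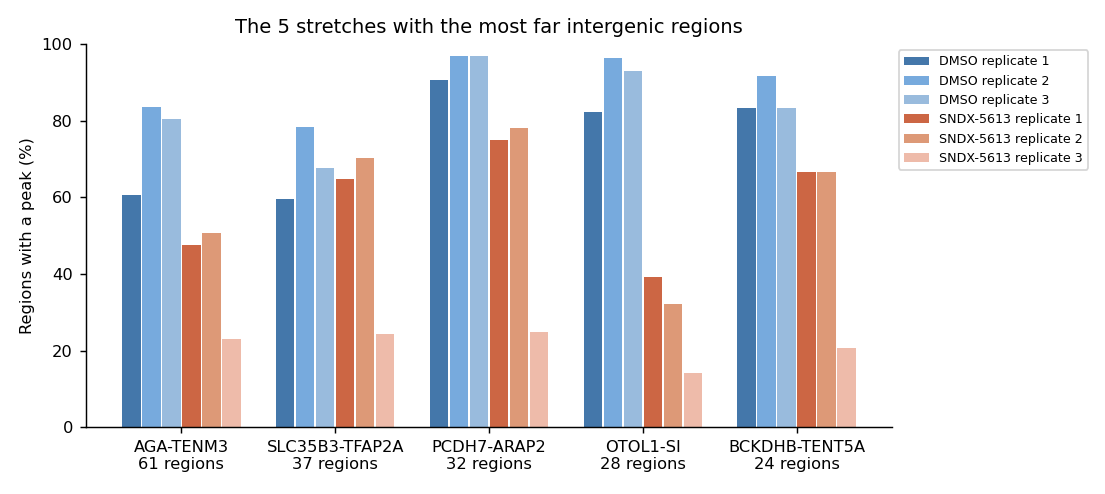
Percent of the far intergenic regions with a peak in each library, for the 5 stretches that hold the most regions. Bars are the 3 DMSO libraries (blue) and the 3 SNDX-5613 libraries (orange), and the stretch names give the flanking protein-coding genes. In the stretch between OTOL1 and SI, 23, 27 and 26 of 28 regions had a peak with DMSO and 11, 9 and 4 with SNDX-5613.

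By nearest protein-coding gene, the regions belonged to deserts of several kinds of gene, and the lists differed in their balance between the consensus sets. Genes of neural adhesion and guidance were nearest to 453 regions, 13.3% of the class, and to 13.3% of the far sequence. The density there was 8.87 regions per Mb, near the 8.88 of the whole class. Of the 453 regions, 29.1% were in the DMSO set only and 11.7% in the SNDX-5613 set only, against 21.0% and 13.5% for the whole class. TENM3 led with 38 regions, 18 of them in the DMSO set only and 1 in the SNDX-5613 set only, followed by PCDH7 with 28, the adhesion molecule NCAM2 with 25, the latrophilin ADGRL3 with 22 and PCDH15 with 20. Developmental transcription factors were nearest to 211 regions, at 12.3 per Mb, of which 11.4% were in the DMSO set only and 19.4% in the SNDX-5613 set only, the opposite balance. Here TFAP2A led with 32 regions, 5 in each set alone, followed by KLF4 with 16, SHOX with 13, SOX9 with 11 and SALL3 with 9. Genes of secreted signalling and its regulators were nearest to 72 regions, at 14.9 per Mb, with 15.3% in the DMSO set only and 8.33% in the SNDX-5613 set only. They were led with 14 regions by SPRY2, an antagonist of FGF signalling that acts inside the cell and is not itself secreted. BMP7 followed with 10, before HGF and TGFB2 with 6 each and EDN1 with 5. Genes of liver function were nearest to 24 regions, at 14.8 per Mb, of which 4 were in the DMSO set only and 0 in the SNDX-5613 set only. They were CPS1, the first enzyme of the urea cycle, with 13, IGFBP3 with 5, HNF4G with 4 and FOXA2 and PPARGC1A with 1 each. The nearest gene is a label of position and was not tested as a target.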

How the data were processed

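Deposited ATAC-seq peak lists of HLF cells, 3 libraries with DMSO and 3 with SNDX-5613, were analysed. The authors aligned reads to hg38 with Bowtie2 2.3.4.1, marked duplicates with Picard 2.20.0 and called peaks per library without pooling. Trim Galore 0.6.7, MACS2 and deepTools 3.5.4 are also named in the submitters' processing notes. Whether reads were shifted for Tn5, filtered on mapping quality or masked by a blacklist is not given in the sources used here, and multiply mapped reads can make peaks in repeats. Each deposited peak list gives the authors' fold enrichment over local background, the authors' −log10 p-value and −log10 q-value, and a summit position. The deposited consensus sets, made with RMSPC, give regions with a combined −log10 p-value, which was not used beyond the regions.

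Chromosomes 1 to 22, X and Y were used, with GENCODE release 44, and no summit lay past a chromosome end. Copies of the summit sequences were counted on these chromosomes only. Summits that shared a region were reduced to the strongest. Read numbers were not analysed here, so depth was read from pileups that solve fold and p together (whole numbers for 100% of the summits used, within 0.01 of −log10 p). This gives relative depth only. Promoters lay within 1 kb of a transcription start site. Library values were tested by exact two-sided permutation of the group labels, which with 3 against 3 libraries reach p = 0.1 at the lowest, and far with nearer intergenic regions by an exact sign-flip test over 6 libraries. The code was tested on simulated data. Python 3.11.15, numpy 2.4.6, pandas 2.3.3 and scipy 1.17.1 were used.

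The regions and gene lists were chosen with earlier results of these data known. Named regions were the 6 with the highest minimum percentile in all 6 libraries, the 5 of each group-specific kind with the highest minimum percentile, the 4 with the widest gap in each direction, the 5 farthest from a gene start and the 5 richest stretches. Of these regions 2, the first of those lower in rank and the second SNDX-5613-specific one, are not reported here, nor are the blood and endothelial markers. Alternatives covered the distance, annotation, peak threshold, overlap, list length, rank scale, value ranked, motif window, replicate block and each library in turn. Alternatives for base composition, copy number and sites merged from the 6 lists, and the far minus nearer share with a peak, were chosen after seeing the data.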

Additional observations from a re-analysis of the deposited data

How the results depend on the processing

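Read counts were not analysed here, 3 against 3 libraries cannot give an exact permutation p under 0.1, and the depth of SNDX-5613 replicate 3 limits every count that requires a peak there. The values that moved, or turned their direction, under another setting were these, and the cause was not tested. Counts of regions specific to a group, or higher or lower in rank, are given in this section without the share over all merged regions. The number of regions tested also changes with the setting. These counts alone are therefore not results about far intergenic regions. Elsewhere, 118 alternative values kept their direction and side of the p threshold, or stayed near the reported value. For a difference between the groups, that threshold lay under the smallest p that the exact test allows. Its side could thus not change, and only the direction of such a difference was compared.

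With a distance of more than 50 kb there were 7085 regions, 39 SNDX-5613-specific, 19 higher and 137 lower in rank, and 16.5% in the DMSO set only. With more than 200 kb there were 1325 regions, 6 SNDX-5613-specific and 78 DMSO-specific, 3 higher and 35 lower, 25.6% in the DMSO set only, and the group difference of the far minus nearer percentile turned to 1.38. Counting genes of every GENCODE type left 1552 regions. A threshold of −log10 q of at least 3 gave 5 SNDX-5613-specific and 2 higher regions. An overlap of 50% of the region gave 10 SNDX-5613-specific, 2 higher and 17 lower regions and a far minus nearer difference of 0.519. At equal numbers of regions the median percentile differed by 1.70, the far minus nearer percentile by 0.154 and the far minus nearer share with a peak by 0.618, with 35 DMSO-specific, 40 higher and 31 lower regions. Over all regions of each list the far intergenic share differed by −0.449 points. The rank among shared regions gave a difference of 1.03 and 74 higher regions, and fold enrichment 3 higher regions. Sites merged from the 6 lists gave 7378 regions and a far minus nearer difference of 0.0987, and single-copy summits one of 0.0756.

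Leaving out each library in turn, the difference in median percentile ranged from −13.9 to 0.781 and the far minus nearer difference from −1.51 to 0.146. SNDX-5613-specific regions numbered 22 to 143, DMSO-specific 154 to 307, higher 9 to 270 and lower 79 to 218. The highest counts of SNDX-5613-specific, higher and lower regions came without SNDX-5613 replicate 3, and the highest DMSO-specific count without SNDX-5613 replicate 1. Without DMSO replicate 1 there were 257 DMSO-specific, 14 higher and 151 lower regions, without DMSO replicate 2 there were 26 higher, and without SNDX-5613 replicates 1 or 2 there were 165 or 122 lower. The far minus nearer percentile over libraries ranged from −9.40 to −8.80, with p = 0.0625 by the exact sign-flip test, the smallest that 5 libraries allow. On shared ranks without SNDX-5613 replicate 3 it was −13.3 (p = 0.0625, exact), with 248 higher and 308 lower regions.

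In windows with under 40% GC, 26.2% were in the DMSO set only and 10.4% in the SNDX-5613 set only. In windows of 40% GC or more the shares were 6.21% and 22.3%, the far minus nearer percentile differed by 1.64, and the far minus nearer share with a peak by 7.93 points, or 9.64 without SNDX-5613 replicate 3. Sets rebuilt from a peak in at least 2 of 3 libraries gave 26.2% and 9.79%. Within 50 bp of the summit, the motif shares were 15.6% for AP-1, 10.1% for TEAD, 4.63% for NF-Y, 4.49% for GATA, 1.99% for FOX, 3.58% for CEBP, 3.02% for RUNX, 1.52% for ETS and 5.04% for SP. Within 250 bp they were 27.9%, 31.4%, 12.8%, 27.9%, 8.94%, 22.6%, 11.1%, 2.79% and 13.1%.

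The study's methods speak of dishes divided between treatment and control, without tying the replicate numbers to dishes. The deviations of same-numbered libraries from their group means correlated at −0.0335, 0.00849 and 0.0510 over 657 regions, which does not show whether they shared a dish. Under a replicate block by number, 22 regions were higher and 118 lower in each pair, and the share with a peak differed by −19.4 points (exact sign-flip test, p = 0.5), the far minus nearer share by −6.05 points (p = 0.25, exact, the smallest that 3 pairs allow).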
